A study of Arabidopsis thaliana with 6 samples.

Results

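The genes of the trimeric light-harvesting complex of photosystem II (LHCII) were followed in Arabidopsis thaliana seedlings of an sqtl1 RNA interference (RNAi) line and of the wild-type accession Col-0. They were taken by gene identifier from the deposited expression table and comprise all 5 LHCB1 genes, all 3 LHCB2 genes and the 1 LHCB3 gene, 9 of the 38194 genes listed. Each group had 3 biological replicates of whole seedlings, collected at day 7 after stratification from plants grown in long days on sucrose medium. The gene that the construct silences is named only sqtl1 in the sources used here and no identifier is given, so its own RNA was not checked. The labels speak of an sqtl1 RNAi line and do not say how many transformants it holds. The titles of its samples read sh1, a term left unexplained. All levels are deposited RPKM values, which count reads relative to gene length and to a scaling set for each library.

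LHCII is the main antenna of plant photosynthesis and one of the most abundant membrane proteins of leaves. Its trimers bind chlorophyll a, chlorophyll b and xanthophylls, pass excitation energy mainly to photosystem II and help to stack the thylakoid membranes. The subunits are encoded in the nucleus, made in the cytosol, imported into the chloroplast and inserted into the thylakoid membrane. LHCB1 is the bulk subunit, LHCB2 carries the phosphorylation site used when part of LHCII is redirected to photosystem I, and LHCB3 lacks that site and sits in trimers bound with moderate strength to the photosystem II core. Transcription of these genes is switched on by light during greening and is lowered when chloroplasts are damaged.

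The genes are near copies of one another, which matters for what a read can tell. In the RefSeq annotation of the TAIR10.1 assembly, LHCB1.1 (AT1G29920, chr1:10474656-10475969, minus strand), LHCB1.2 (AT1G29910, chr1:10472280-10473502, minus strand) and LHCB1.3 (AT1G29930, chr1:10477885-10479114, plus strand) lie side by side, with 1153 bases between LHCB1.2 and LHCB1.1 and 1915 bases between LHCB1.1 and LHCB1.3. LHCB1.4 (AT2G34430, chr2:14524607-14525918, plus strand) and LHCB1.5 (AT2G34420, chr2:14522524-14523568, minus strand) form a divergent pair with 1038 bases between them. Each LHCB1 gene has 1 exon. LHCB2.1 (AT2G05100, chr2:1822990-1824480, minus strand) and LHCB2.2 (AT2G05070, chr2:1799234-1800472, minus strand) are 22517 bases apart, and LHCB2.3 (AT3G27690, chr3:10255906-10257489, plus strand) stands alone. The LHCB2 genes have 2 exons and LHCB3 (AT5G54270, chr5:22038165-22039568, plus strand) has 3.

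Among gap-free stretches of 60 coding bases in TAIR10.1, the one with the most positions that vary between the LHCB1 copies was chosen for print. It is the most divergent such stretch and not a typical one. It is printed from each gene's own strand, with capitals where a base differs from LHCB1.3. The stretches lie at chr1:10475626-10475685, chr1:10472980-10473039, chr1:10478278-10478337, chr2:14525022-14525081 and chr2:14523253-14523312, in the order below.
LHCB1.1: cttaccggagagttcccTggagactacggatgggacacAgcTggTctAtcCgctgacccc
LHCB1.2: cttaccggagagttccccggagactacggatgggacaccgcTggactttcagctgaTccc
LHCB1.3: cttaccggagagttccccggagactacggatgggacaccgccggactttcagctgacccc
LHCB1.4: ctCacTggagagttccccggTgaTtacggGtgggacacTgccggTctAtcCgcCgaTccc
LHCB1.5: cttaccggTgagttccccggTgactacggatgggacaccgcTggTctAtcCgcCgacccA
LHCB1.2 differed from LHCB1.3 at 2 of these bases, LHCB1.1 at 6, LHCB1.5 at 8 and LHCB1.4 at 11. Over the whole coding sequence, pairs of LHCB1 genes were 86.7% to 96.4% identical, with a median of 90.0% over 10 pairs.

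For the LHCB2 genes a stretch of 60 coding bases was chosen likewise, as the most divergent one without gaps and unbroken in the genome. Here capitals mark bases that differ from LHCB2.2. These stretches lie at chr2:1824243-1824302, chr2:1800241-1800300 and chr3:10256031-10256090.
LHCB2.1: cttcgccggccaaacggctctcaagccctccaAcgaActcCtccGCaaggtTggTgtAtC
LHCB2.2: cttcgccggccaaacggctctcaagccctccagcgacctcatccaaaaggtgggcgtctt
LHCB2.3: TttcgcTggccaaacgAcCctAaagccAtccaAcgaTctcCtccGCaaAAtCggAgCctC
LHCB2.1 differed at 9 bases and LHCB2.3 at 17. LHCB2.1 and LHCB2.2 were 96.6% identical over the coding sequence, the closest pair among the 9 genes. LHCB1 and LHCB2 genes were 68.8% to 72.8% identical, and LHCB3 was 64.0% to 67.1% identical to LHCB1 genes and 64.8% to 65.5% identical to LHCB2 genes.

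Despite this likeness, few reads were shared by the measure that the authors deposited. Their weighted multiple-mapping ratio, taken to be the fraction of reads of a gene with several matches in the genome, was 0.0189% to 0.0829% for the LHCB1 genes, 1.3725% for LHCB2.1, 1.4473% for LHCB2.2, and 0 for LHCB2.3 and LHCB3. No window of 150 bases in an LHCB1 transcript occurred exactly in another member, while LHCB2.1 and LHCB2.2 shared 3 such windows, 0.24% of those of LHCB2.1 and 0.3% of those of LHCB2.2. How the authors placed reads that match several copies is not stated in those sources. Values of single copies are therefore uncertain where reads could be split between them, and sums over near-identical copies are given beside them.

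The members were also compared upstream of their annotated starts. The window of 250 bases before to 50 bases after the start was searched on both strands for 8 short letter strings, and each count is set beside the share of 27443 annotated promoters that hold the same string. CCAATC, letters to which GOLDEN2-LIKE factors are known to bind, was found in LHCB1.3, LHCB1.5, LHCB2.1, LHCB2.2 and LHCB2.3, 5 of 9 members, and in 12.35% of all promoters. AAAAATCT, which with AACAATCT makes up the site described for the clock factor CCA1, was found in LHCB1.1, LHCB1.3 and LHCB1.4, and in 7.88% of all promoters. AACAATCT was found in LHCB1.3 and in 2.24% of all promoters. CACGTG, the G-box, was found in LHCB2.3 and in 7.68% of all promoters, and GATAAG, the I-box, in LHCB2.1 and in 14.65%. TATAAA was found in 3 members and 52.15% of all promoters, TATATAA in 3 members and 22.93%, and AAAATATCT, the evening element, in no member and 2.82%. TATAAA and TATATAA overlap in LHCB2.3. The annotated leader is 55 bases long in LHCB1.5 and 259 bases long in LHCB3, so the windows do not lie at one distance from the start codons, and a string that is missing from a window says nothing about sequence outside it.

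The upstream sequences of 4 members are printed because these genes mark the extremes of the results: LHCB1.3 as the member with the highest level, LHCB1.1 as the member with the smallest difference, LHCB2.3 as the member with the largest, and LHCB1.5 as the LHCB1 gene with the largest. Capitals mark the searched strings. For LHCB1.3 the window runs from 100 bases before to 25 bases after the start, chr1:10477785-10477909, on the plus strand. For the others it is the 250 bases before the start, at chr1:10475970-10476219 (minus strand), chr2:14523569-14523818 (minus strand) and chr3:10255656-10255905 (plus strand).
LHCB1.3: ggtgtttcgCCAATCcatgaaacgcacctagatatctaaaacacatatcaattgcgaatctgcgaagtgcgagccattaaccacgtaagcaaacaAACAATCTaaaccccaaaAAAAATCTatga
LHCB1.1: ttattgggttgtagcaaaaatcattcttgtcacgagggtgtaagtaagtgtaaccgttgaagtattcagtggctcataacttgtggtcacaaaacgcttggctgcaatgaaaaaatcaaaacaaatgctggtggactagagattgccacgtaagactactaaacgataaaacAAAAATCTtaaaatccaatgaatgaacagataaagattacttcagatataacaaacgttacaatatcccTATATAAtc
LHCB1.5: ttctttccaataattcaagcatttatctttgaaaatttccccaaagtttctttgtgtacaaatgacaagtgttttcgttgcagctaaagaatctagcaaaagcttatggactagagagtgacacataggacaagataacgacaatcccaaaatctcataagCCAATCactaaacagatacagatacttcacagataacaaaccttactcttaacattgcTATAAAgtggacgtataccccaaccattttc
LHCB2.3: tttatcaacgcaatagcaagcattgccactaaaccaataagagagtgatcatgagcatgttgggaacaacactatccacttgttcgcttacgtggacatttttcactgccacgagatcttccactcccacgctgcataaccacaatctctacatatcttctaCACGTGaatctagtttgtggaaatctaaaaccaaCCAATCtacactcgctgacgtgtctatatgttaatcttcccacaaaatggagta
LHCB1.3 holds CCAATC at position -91, AACAATCT at -5 and AAAAATCT at 14, counted from the gene's annotated start to the first base of the string. LHCB1.5 holds CCAATC at position -89 and TATAAA at -31. LHCB2.3 holds CACGTG at position -88 and CCAATC at -54, and LHCB1.1 holds AAAAATCT at -78 and TATATAA at -9. These matches describe the letters and were not tested for function.

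The depth behind these values was estimated from the smallest steps between low RPKM values, which lay on a grid of 0.5 read in 100% of the low values examined. The estimates were 43.7 M, 46.9 M and 44.0 M reads in sqtl1 RNAi replicates 1, 2 and 3, and 48.0 M, 38.0 M and 49.9 M reads in Col-0 replicates 1, 2 and 3 (M, reads in units of 1e6). A read here may be a read pair. RPKM times gene length summed to 929210.5, 926820.0 and 979309.0 in RNAi replicates 1, 2 and 3, against 1071469.0, 1051600.5 and 1053557.1 in Col-0. Scaling to these summed reads alone would give 1e6 in every library. The deposited scaling therefore holds a further factor that differs between the groups and enters every log2 fold change. Rescaling to TPM, given below, sets it anew. Single members rested on an estimated 4316 (LHCB2.3 in an RNAi library) to 968302 reads (LHCB1.3 in a Col-0 library), so that counting error is small beside the spread between replicates.

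All 9 members were lower in the sqtl1 RNAi seedlings than in Col-0, and all 9 passed the test across all genes (limma on log2(RPKM + 1), Benjamini-Hochberg adjusted p under 0.05), with the exception that quantile normalization turns LHCB1.1 to a log2 fold change of 0.09. All 9 had passed the filter on low values, which asked for an average of 1 RPKM or more across the 6 libraries. In the same fit 27.5% of the 19458 genes tested were called lower, and 25.2% higher, so a lower call on its own was common in this comparison. Lower calls were 52.2% of all calls, and 29.4% after rescaling to TPM, where all 9 members and 17% of all genes tested were called lower. As deposited, 8 of 9 members had a log2 fold change of -1 or lower, against 3.3% of all genes tested, and the members' median was -1.33, against -0.008 for all genes tested. Under quantile normalization, which pulls the highest genes of all libraries together by construction, 3 of 9 members and 3.04% of all genes reached -1, and the members' median was -0.70. The groups did not overlap for any member, and 33% of all genes tested were lower in RNAi without overlap. The number of members called lower dropped to 3 without the filter on low values, where 12.9% of all genes were called lower, and to 4 under quantile normalization, where 26.5% were. The calls on all 5 LHCB1 genes were lost under both, and that on LHCB3 without the filter, while the 3 LHCB2 genes stayed called. Without the filter the members' fold changes stayed and their SEs grew, for LHCB1.3 from 0.263 to 3.773, through the variance trend fitted over all genes. In whole seedlings, fewer green cells and less RNA per green cell cannot be told apart.

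**Figure D1:**
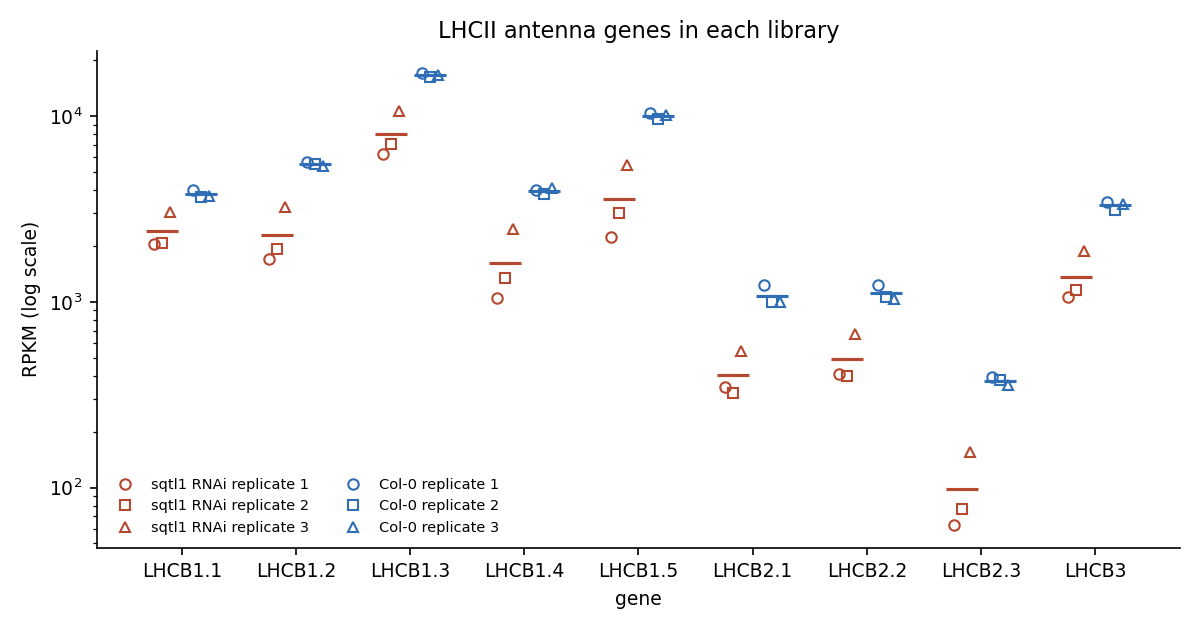
RPKM of the 9 LHCII genes (log axis) in each of the 3 sqtl1 RNAi libraries (red, left in each pair) and the 3 Col-0 libraries (blue, right). Symbols mark replicates 1 (circle), 2 (square) and 3 (triangle), and bars mark group means; every red point lies below every blue point of the same gene in these RPKM values (quantile normalization turns LHCB1.1), and the red triangle is the highest red point for all 9 genes.

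LHCB1.3 was the LHCII gene with the highest level. Its RPKM was 6279.73, 7088.16 and 10689.52 in the RNAi libraries, against 16981.38, 16240.3 and 16625.92 in the Col-0 libraries. All 3 RNAi libraries lay below all 3 Col-0 libraries, and RNAi replicate 3 stood above the other two. The means were 8019 ± 2348 RPKM in RNAi and 16620 ± 370.6 RPKM in Col-0 (SD, n = 3 each), with a log2 fold change of -1.09 (SE 0.263) and an adjusted p of 0.0135 by limma. By RPKM, LHCB1.3 ranked first of all genes in every Col-0 library. In RNAi replicates 1 and 2 it ranked 2, below RBCS1A, which encodes a small subunit of Rubisco, and in RNAi replicate 3 it ranked 1. The call was lost when RNAi replicate 2, Col-0 replicate 1 or Col-0 replicate 3 was left out (adjusted p = 0.061, 0.0538 and 0.0544 by limma). Under quantile normalization the log2 fold change was -0.12 (adjusted p = 0.567 by limma). LHCB1.3 overlaps the gene AT1G29940 in the annotation.

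LHCB1.1 and LHCB1.2, the neighbours of LHCB1.3, differed in how much lower they were. LHCB1.2 had 1692.75, 1919.72 and 3221.78 RPKM in RNAi, against 5660.74, 5487.75 and 5400.32 RPKM in Col-0. This was 2.42-fold lower in RNAi (log2 fold change -1.33, SE 0.253, adjusted p = 0.00542 by limma), or -0.46 (adjusted p = 0.0519) under quantile normalization. LHCB1.1 had 2054.55, 2079.73 and 3040.73 RPKM in RNAi, against 4015.12, 3682.92 and 3717.91 RPKM in Col-0. By fold, its groups lay closer together than those of any other member, with a 1.59-fold lower mean in RNAi (log2 fold change -0.69, SE 0.188, adjusted p = 0.0206 by limma). This call was lost when RNAi replicate 2 or any 1 Col-0 library was left out (adjusted p of 0.0622 to 0.0819 by limma), and quantile normalization turned the log2 fold change to 0.09. Summed over these 3 genes, the chromosome 1 group had 12690 ± 3730 RPKM in RNAi and 25940 ± 645.2 RPKM in Col-0 (SD, n = 3 each), a log2 fold change of -1.07 (adjusted p = 0.0211 by limma; 27.5% of features lower in that fit), a call that was lost when the same libraries were left out.

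The chromosome 2 pair had larger log2 fold changes. LHCB1.5, the LHCB1 gene with the second highest level, had 2227.89, 3010.3 and 5466.42 RPKM in RNAi, against 10364.13, 9603.86 and 10093.53 RPKM in Col-0. RNAi replicate 3 had 2.45 times the level of RNAi replicate 1, and the Col-0 libraries lay close together. The log2 fold change was -1.59 (SE 0.332), a 2.81-fold lower mean in RNAi, with an adjusted p of 0.00775 by limma. LHCB1.4 had 1041.95, 1348.39 and 2468.82 RPKM in RNAi, against 3999.86, 3816.7 and 4079.56 RPKM in Col-0, the log2 fold change being -1.39 (SE 0.308, adjusted p = 0.00975 by limma). The 2 genes summed to 5188 ± 2441 RPKM in RNAi and 13990 ± 498.8 RPKM in Col-0 (SD, n = 3 each), a log2 fold change of -1.53 (adjusted p = 0.00972 by limma). Under quantile normalization LHCB1.5 had -0.49, LHCB1.4 -0.70 and their sum -0.54, with adjusted p-values of 0.137, 0.0778 and 0.125. Without the filter on low values the fold changes stayed and the adjusted p-values were 0.485, 0.117 and 0.751 by limma.

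LHCB1.5 overlaps AT2G34410 and the antisense gene AT2G08665. AT2G08665 had 1.2, 1.4 and 2.68 RPKM in RNAi, against 5.72, 6.49 and 6.04 RPKM in Col-0, and had a log2 fold change of -1.40 (adjusted p = 0.00162 by limma). The libraries were made with a strand-marking kit, but whether strand was used in counting is not given, so reads of LHCB1.5 and of its antisense partner cannot be told apart.

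LHCB2 genes had lower levels than LHCB1 genes and were lower in RNAi as well. LHCB2.1 had 345.8, 324.79 and 546.03 RPKM in RNAi, against 1234.42, 998.82 and 996.78 RPKM in Col-0. LHCB2.2 had 410.5, 399.88 and 670.25 RPKM in RNAi, against 1232.08, 1062.41 and 1038.26 RPKM in Col-0. Both genes were highest in RNAi replicate 3 within the RNAi group and in replicate 1 within Col-0, and for neither did the groups overlap. The log2 fold change was -1.44 (SE 0.212, adjusted p = 0.00214 by limma) for LHCB2.1 and -1.21 (SE 0.211, adjusted p = 0.00399 by limma) for LHCB2.2. Their sum, which depends little on how reads were split between these closest copies, had a log2 fold change of -1.32 (adjusted p = 0.00322 by limma). The length behind the RPKM of LHCB2.1 is 1.167 kb in the table and 1406 bases in the RefSeq transcript, and for LHCB2.3 it is 1.465 kb and 1170 bases, which bears on their levels and not on the fold changes.

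LHCB2.3 was the LHCII gene with the lowest level and the largest log2 fold change. It had 62.68, 76.57 and 154.65 RPKM in RNAi, against 394.04, 378.71 and 355.94 RPKM in Col-0. RNAi replicate 3, the highest of its group, stood at 41.1% of the Col-0 mean. The means were 97.97 ± 49.58 RPKM in RNAi and 376.2 ± 19.17 RPKM in Col-0 (SD, n = 3 each), 3.84-fold lower in RNAi, the log2 fold change being -2.04 (SE 0.311, adjusted p = 0.00241 by limma). Among all genes of a library its RPKM ranked 1703, 1363 and 656 in RNAi, against 210, 223 and 239 in Col-0.

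LHCB3 had 1058.33, 1158.18 and 1884.32 RPKM in RNAi, against 3438.1, 3124.35 and 3368.15 RPKM in Col-0. It was 2.42-fold lower in RNAi, the log2 fold change being -1.32 (SE 0.228, adjusted p = 0.0038 by limma). Under quantile normalization it was -0.76 (adjusted p = 0.0126), and without the filter on low values the adjusted p was 0.065 by limma. LHCB3 stood at 32.0%, 35.0% and 56.9% of its Col-0 mean in the RNAi libraries, close to the 30.7%, 34.8% and 58.4% of LHCB1.2.

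The RNAi replicates were unequal, and the members moved together across them. As a percentage of each gene's Col-0 mean, members stood at 16.7% to 54.0% in RNAi replicate 1, at 20.4% to 54.7% in replicate 2 and at 41.1% to 79.9% in replicate 3. Replicate 3 was the highest RNAi library for 9 of 9 members, as it was for 40.9% of all genes tested, and replicate 1 was the lowest for 7 of 9. The share of all genes with replicate 1 lowest was not counted. The coefficient of variation of a member ran between 23.5% and 50.6% in RNAi and between 2.2% and 12.7% in Col-0. With RNAi replicates 1 and 2 alone, members averaged 18.5% to 54.3% of their Col-0 means.

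**Figure D2:**
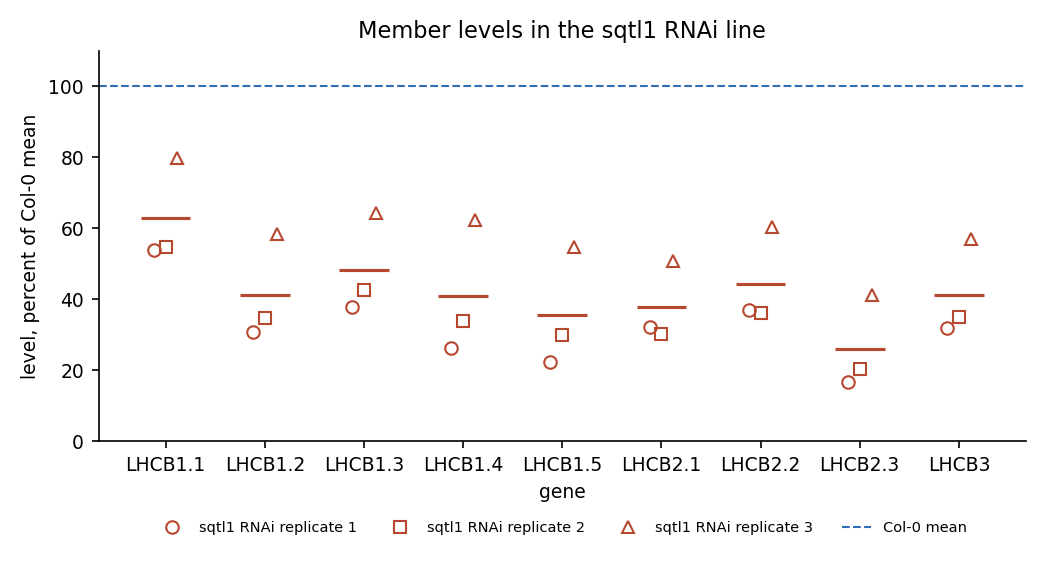
Level of each LHCII gene in the 3 sqtl1 RNAi libraries as a percentage of its Col-0 mean (dashed line at 100), with bars for the RNAi mean. LHCB1.1, which quantile normalization turns, stands highest, at 54.0% to 79.9%, LHCB2.3 lowest, at 16.7% to 41.1%, and replicate 3 (triangle) is the highest for each gene.

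By subfamily, summed LHCB1 had 17880 ± 6166 RPKM in RNAi and 39920 ± 1095 RPKM in Col-0 (SD, n = 3 each), the log2 fold change being -1.21 (SE 0.345, adjusted p = 0.0247 by limma; 27.4% of features lower in that fit). Summed LHCB2 had 997.0 ± 323.9 RPKM in RNAi and 2564 ± 258.1 RPKM in Col-0, the log2 fold change being -1.40 (SE 0.226, adjusted p = 0.00295 by limma). The call on summed LHCB1 is not firm, since leaving out either RNAi replicate 1 or 2, or any 1 Col-0 library, put its adjusted p between 0.0596 and 0.0978. Under quantile normalization summed LHCB1 had -0.26 (adjusted p = 0.381), summed LHCB2 -1.30 (0.00479) and LHCB3 -0.76 (0.0127, all by limma).

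The 9 genes together made up 1.99%, 2.28% and 3.47% of the library in RNAi, as RPKM times gene length, against 5.31%, 5.08% and 5.21% in Col-0. The share was 2.58 ± 0.79% in RNAi and 5.20 ± 0.12% in Col-0 (SD, n = 3 each), without overlap (two-sided exact permutation p = 0.1, the smallest that 3 against 3 libraries allow).

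The ratios between subfamilies are given for the RPKM as deposited. A scaling factor common to a whole library cancels in them, whereas quantile normalization, which is no such factor, changes them. LHCB3 stood at 7.96%, 7.50% and 7.57% of summed LHCB1 in RNAi, against 8.38%, 8.05% and 8.44% in Col-0, a log2 difference of -0.11. LHCB2 stood at 6.16%, 5.19% and 5.51% of summed LHCB1 in RNAi, against 6.97%, 6.28% and 5.99% in Col-0, a log2 difference of -0.19 with overlapping groups. LHCB2 over LHCB3 differed by -0.08, also with overlap. The two-sided exact permutation p was 0.1 for LHCB3 over LHCB1, 0.2 for LHCB2 over LHCB1 and 0.4 for LHCB2 over LHCB3, or 0.3, 0.3 and 0.4 after adjustment over the 3 ratios. With 3 libraries a group these p-values cannot fall below 0.1 and do not show that the ratios were equal. Under quantile normalization the log2 differences were -1.03 for LHCB2 over LHCB1, -0.49 for LHCB3 over LHCB1 and -0.54 for LHCB2 over LHCB3, each with an exact permutation p of 0.1.

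Relative to LHCB1, 3 genes passed the limma test. LHCB1.1 stood at 18.28%, 15.56% and 13.92% of the other LHCB1 genes in RNAi, against 10.85%, 10.48% and 10.27% in Col-0, a log2 difference of 0.59 (SE 0.171, adjusted p = 0.000928 by limma). LHCB1.5 stood at 20.13%, 24.21% and 28.15% of the other LHCB1 genes in RNAi, against 33.81%, 32.86% and 33.84% in Col-0, a log2 difference of -0.48 (SE 0.151, adjusted p = 0.00191 by limma). LHCB2.3 stood at 0.47%, 0.50% and 0.62% of summed LHCB1 in RNAi, against 0.96%, 0.98% and 0.89% in Col-0, a log2 difference of -0.83 (SE 0.265, adjusted p = 0.0024 by limma). For each of these genes the groups did not overlap, which held for 92.5% of all genes' ratios to LHCB1, and RNAi replicate 3 lay nearest to Col-0.

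These ratio tests are read against their own background. In the same fit 0.319% of all genes were lower and 89.6% were higher relative to LHCB1, because LHCB1 itself was lower, and every ratio shares the LHCB1 values of the same 6 libraries, so the model's estimate of spread is common to them. A higher ratio, as for LHCB1.1, is therefore the usual case, whereas a lower one, as for LHCB1.5 and LHCB2.3, was called for few genes. LHCB2.3 was lower in RNAi by more than summed LHCB1, and LHCB1.5 by more than the other LHCB1 genes. The ratios of LHCB1.1 and LHCB1.5 thus have a different denominator from most of the background, which was set against summed LHCB1. The exact permutation test does not set these 3 genes apart: the groups also did not overlap for LHCB1.2, LHCB1.3 and LHCB3, and the p of all 6 ratios is 0.1, the smallest possible, or 0.15 adjusted over the 9. The ratios of LHCB1.2, LHCB1.3, LHCB1.4, LHCB2.1, LHCB2.2 and LHCB3 had limma adjusted p-values of 0.413, 0.107, 0.287, 0.319, 0.982 and 0.557. Without RNAi replicate 3, LHCB1.3 (log2 difference 0.29) and LHCB1.4 (-0.29) also passed, each with an adjusted p of 0.0224 by limma. There 97.3% of all genes were higher and 0.55% lower relative to LHCB1. LHCB1.3 also passed with a filter at 5 RPKM (adjusted p = 0.0431 by limma), where 89.6% of all genes were higher and 0.316% lower. Under quantile normalization, where 8.26% of all genes were lower and 31.4% higher relative to LHCB1, the call on LHCB1.5 was lost, while LHCB2.1 (-1.07), LHCB2.2 (-0.81) and LHCB3 (-0.49) passed, with adjusted p-values of 0.00141, 0.00395 and 0.0121 by limma.

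**Figure D3:**
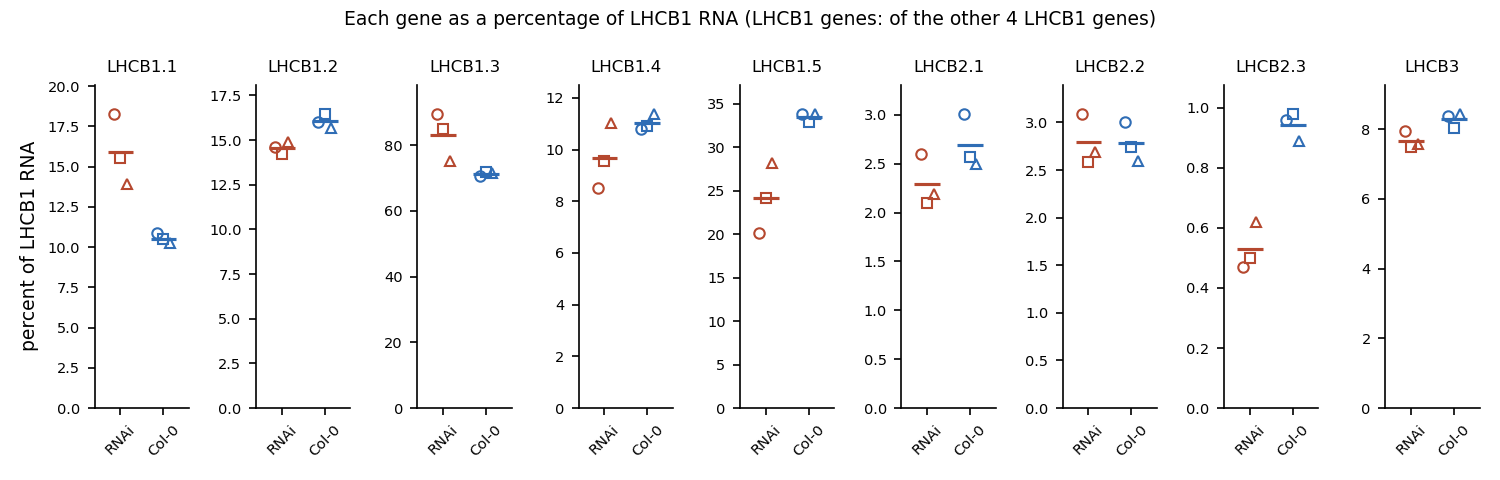
Each LHCII gene as a percentage of LHCB1 RNA (of the other 4 LHCB1 genes for an LHCB1 gene, of all 5 summed for LHCB2 genes and LHCB3), with sqtl1 RNAi in red on the left and Col-0 in blue on the right of each panel. Symbols mark replicates 1 (circle), 2 (square) and 3 (triangle) and bars mark means on axes that start at 0; LHCB1.1 is higher in RNAi, and LHCB1.5 and LHCB2.3 are lower, without overlap.

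Seen as a pool, LHCB1.3 made up 40.03 ± 1.80% of summed LHCII RPKM in RNAi and 36.29 ± 0.36% in Col-0, LHCB1.1 made up 12.10 ± 1.37% in RNAi and 8.31 ± 0.17% in Col-0, and LHCB1.5 made up 17.13 ± 2.38% in RNAi and 21.88 ± 0.23% in Col-0 (SD, n = 3 each). In Col-0 the order of levels was LHCB1.3, LHCB1.5, LHCB1.2, LHCB1.4, LHCB1.1, LHCB3, LHCB2.2, LHCB2.1 and LHCB2.3, where the ranges of LHCB1.4 and LHCB1.1, and of LHCB2.2 and LHCB2.1, overlapped. In RNAi LHCB1.3 stayed above all others, while the ranges of LHCB1.5, LHCB1.1, LHCB1.2, LHCB1.4 and LHCB3 each overlapped the next in that order. Within every RNAi library, however, LHCB1.5 lay above LHCB1.1, and LHCB1.2 above LHCB1.4. LHCB1.1 and LHCB1.2 changed places between RNAi libraries, as did LHCB1.4 and LHCB3.

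RNA of the other antenna genes was lower too. All 6 genes of the photosystem I antenna (LHCA) were lower in RNAi, with a median log2 fold change of -1.34, and all 7 genes of the minor photosystem II antenna and PSBS were lower, with a median of -0.77, except that quantile normalization turned LHCB4.1 to 0.08. Without the filter on low values these counts were 3 of 6 and 4 of 7. Of all genes, 27.5% were lower with the filter and 12.9% without it. Under quantile normalization the median of the photosystem I antenna was -0.78, with LHCA4 at -0.90, LHCA3 at -0.81 and, in the other list, LHCB5 at -0.33. LHCA4, which carries the far-red-absorbing chlorophylls of that antenna, averaged 1450 ± 517.8 RPKM in RNAi and 4076 ± 205.0 RPKM in Col-0 (log2 fold change -1.55, adjusted p = 0.0029 by limma). LHCA6, which joins photosystem I to the NDH complex, had a log2 fold change of -1.42, LHCA3 of -1.27 and LHCA5 of -0.82. LHCB5, a monomeric antenna also called CP26, had a log2 fold change of -1.15, LHCB4.3 of -0.65 and LHCB7 of -0.56. PSBS, which senses lumen pH for the dissipation of excess light, averaged 340.5 ± 29.83 RPKM in RNAi and 579.9 ± 25.86 RPKM in Col-0 (log2 fold change -0.77, adjusted p = 0.000946 by limma).

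All 11 nuclear genes of photosystem II subunits were lower in RNAi, at a median log2 fold change of -0.87, and 7 of 11 without the filter. The shares of all genes lower were 27.5% and 12.9%. Under quantile normalization 9 of the 11 were lower, against 26.5% of all genes, the median of the list was -0.51 and PSBR had -0.39. Among them PSBR had a log2 fold change of -1.22, PSBW of -1.14, PSBQ2, a subunit of the oxygen-evolving complex, of -1.10, and PSB28, an assembly factor, of -0.57. The LHCII median of -1.33 lay beside that of the photosystem I antenna; the differences between lists were not tested.

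Of 8 genes of LHC-like proteins, which resemble antenna proteins and mostly act in pigment handling or light stress, 5 were lower, 2 were higher and 1 was not called. Among all genes tested 27.5% were lower and 25.2% higher. SEP1 had a log2 fold change of -1.12, LIL3.1 of -0.78, LIL3.2 of -0.71 and OHP1 of -0.60. LIL3 proteins hold geranylgeranyl reductase, an enzyme of chlorophyll synthesis, at the membrane. The 2 that were higher were ELIP1 and ELIP2, early light-induced proteins that accumulate under light stress, which were chosen for naming after their values were seen. ELIP1 had a log2 fold change of 1.03 (adjusted p = 0.0381 by limma) and ELIP2 of 1.13 (adjusted p = 0.0323 by limma), and both calls were lost when either RNAi replicate 1 or 2, or any 1 Col-0 library, was left out.

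**Figure D4:**
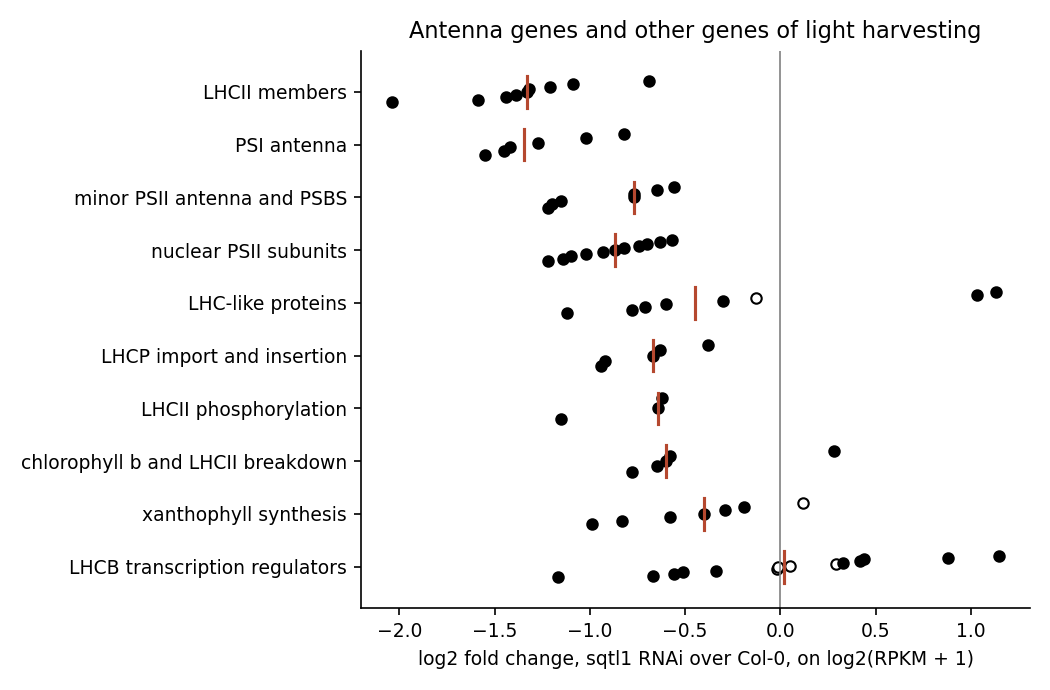
Log2 fold change of sqtl1 RNAi over Col-0, on log2(RPKM + 1), for the 9 LHCII genes (top row) and for 9 lists of other light-harvesting genes. Filled points passed the test (limma adjusted p under 0.05), open points did not, and red bars mark list medians (quantile normalization turns LHCB1.1 to 0.09); the LHCII and LHCA lists have medians of -1.33 and -1.34, and the list of regulators lies on both sides of 0.

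The genes for proteins that bring LHCII apoproteins to the thylakoid were lower as well. All 5 were called lower, against 27.5% of all genes tested, and their median log2 fold change was -0.67. LTD, which passes the imported protein on, had a log2 fold change of -0.94, and ALB3, the membrane insertase, of -0.92. CPSRP43, the chaperone that binds LHC proteins in the stroma, had -0.67, CPFTSY, the receptor, -0.63 and CPSRP54, the GTPase of the particle, -0.38. CPSRP54 averaged 60.14 ± 1.99 RPKM in RNAi and 78.75 ± 2.59 RPKM in Col-0 (SD, n = 3 each).

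The 3 genes listed under LHCII phosphorylation, STN7, TAP38 and the related STN8, were lower as well, against 27.5% of all genes tested. STN7, the kinase that phosphorylates LHCII, averaged 18.94 ± 1.67 RPKM in RNAi and 29.73 ± 3.76 RPKM in Col-0 (log2 fold change -0.62, adjusted p = 0.00322 by limma). TAP38, the phosphatase that acts against it, averaged 54.69 ± 14.22 RPKM in RNAi and 120.2 ± 3.41 RPKM in Col-0 (log2 fold change -1.15, adjusted p = 0.00211 by limma). STN8, a related kinase that acts mainly on the photosystem II core, had a log2 fold change of -0.64.

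Chlorophyll b, which LHCII needs to fold, is made by CAO and turned back by NYC1, NOL and HCAR before breakdown. All 4 of these genes were lower, against 27.5% of all genes tested. Their log2 fold changes were -0.65, -0.58, -0.78 and -0.60 for CAO, NYC1, NOL and HCAR. CAO averaged 23.63 ± 0.56 RPKM in RNAi and 37.81 ± 2.71 RPKM in Col-0 (SD, n = 3 each). NYE1, which removes magnesium from chlorophyll during degreening, was higher, with 5.37, 5.14 and 5.49 RPKM in RNAi, against 4.45, 4.24 and 3.98 RPKM in Col-0 (log2 fold change 0.28, adjusted p = 0.0079 by limma). NYE2 was below the filter and was not tested, with 0.39 RPKM on average in RNAi and 0.44 RPKM in Col-0.

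Of 7 genes of xanthophyll synthesis, 6 were lower and 1 was not called, with a median log2 fold change of -0.40. Of all genes tested, 27.5% were lower. LUT2 and LUT1, enzymes of the path to lutein, had log2 fold changes of -0.83 and -0.40. ZEP and VDE1, which run the xanthophyll cycle in opposite directions, had -0.58 and -0.99.

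The regulators known to act on LHCB transcription did not move one way. Of 16 listed genes, 14 were tested, of which 5 were lower, 5 were higher and 4 were not called, with a median log2 fold change of 0.02. Among all genes tested 27.5% were lower and 25.2% higher, so calls in both directions were common in this comparison. GLK1, a GOLDEN2-LIKE factor that activates LHCB genes, had 23.48, 19.38 and 18.46 RPKM in RNAi, against 22.46, 20.59 and 19.18 RPKM in Col-0, with a log2 fold change of -0.02 (adjusted p = 0.853 by limma). Its groups overlapped throughout. GLK2, its close relative, averaged 19.93 ± 2.19 RPKM in RNAi and 15.65 ± 2.01 RPKM in Col-0, with overlapping groups and a log2 fold change of 0.33 (adjusted p = 0.0429 by limma). That call was lost when RNAi replicate 1 or 2, or Col-0 replicate 2 or 3, was left out.

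HY5, a bZIP factor of light signalling, had a log2 fold change of -0.01 (adjusted p = 0.95 by limma) and its homolog HYH of 0.29 (adjusted p = 0.338 by limma), or 0.56 (adjusted p = 0.00959) without RNAi replicate 3. The signs for GLK1 and HY5 turn to 0.15 and 0.17 when RPKM is rescaled to TPM, in which the median of all genes is itself 0.159. CCA1, a clock factor, averaged 1.26 ± 0.39 RPKM in RNAi and 1.18 ± 0.28 RPKM in Col-0 (log2 fold change 0.05, adjusted p = 0.812 by limma). LHY, its partner, was not tested, with 1.05 ± 0.36 RPKM in RNAi and 0.55 ± 0.04 RPKM in Col-0.

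Phytochrome-interacting factors, repressors of greening, split by member. PIF3 had 17.48, 19.19 and 15.2 RPKM in RNAi, against 8.1, 6.99 and 6.67 RPKM in Col-0 (log2 fold change 1.15, adjusted p = 0.000435 by limma), and PIF1 had a log2 fold change of 0.42. PIF4 had 14.64, 18.16 and 27.88 RPKM in RNAi, against 47.92, 41.17 and 46.68 RPKM in Col-0 (log2 fold change -1.17, adjusted p = 0.00469 by limma), and PIF5 had a log2 fold change of -0.67. PIF4 was highest in RNAi replicate 3 among the RNAi libraries, as the LHCII genes were, whereas PIF3 was lowest there. The GATA factors GNC and CGA1, which promote chloroplast development, were higher, with log2 fold changes of 0.88 and 0.44.

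Of the listed genes of plastid-to-nucleus signalling, GUN1, GUN4 and GUN5 were called lower. GUN1 had a log2 fold change of -0.56, GUN4, an activator of magnesium chelatase, of -0.51, and GUN5, the H subunit of that enzyme, of -0.34. The call on GUN5 was lost after rescaling to TPM (-0.15, adjusted p = 0.0962 by limma). ABI4 was not tested, with 2.35, 1.45 and 0.11 RPKM in RNAi, against 0, 0.05 and 0 RPKM in Col-0.

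Genes whose pattern over the 6 libraries was most like the members' mean were sought among the 13924 genes averaging 5 RPKM or more, by the root mean square distance of their log2 values, each centred on its Col-0 mean. The members' mean stood at -1.71, -1.54 and -0.79 in the RNAi libraries, against 0.08, -0.05 and -0.03 in Col-0. The nearest genes outside the family were AT4G33120, annotated as a methyltransferase (distance 0.056), the cytochrome P450 gene CYP71B4 (0.058), LHCA3 (0.063), PnsL1 (0.074), AT1G23130 (0.075), PETE1 (0.076), AT2G34620 (0.08) and PnsL2 (0.083). The distance was taken on log2(RPKM + 1), where the added 1 RPKM shrinks differences of low genes. AT4G33120 and CYP71B4 had 2.34 and 2.38 RPKM in RNAi replicate 1, and their RPKM means were 2.83-fold and 3.03-fold lower in RNAi. Their places at the top therefore depend on the added value, and other values were not tried here. LHCA3 belongs to the photosystem I antenna, PETE1 encodes a plastocyanin, and PnsL1 and PnsL2 are lumenal subunits of the chloroplast NDH complex. PETE1 had 47.73, 62.28 and 94.74 RPKM in RNAi, against 176.21, 166.57 and 176.02 RPKM in Col-0. Among the members LHCB1.2 (0.025) and LHCB3 (0.041) lay nearest to the common pattern, and LHCB1.1 (0.472) and LHCB2.3 (0.505) farthest from it.

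Markers of other tissues and states were read in the same libraries. Green leaf markers summed to 12309.56 to 17701.76 RPKM in RNAi and to 24971.74 to 26589.94 RPKM in Col-0, with 6 of 6 lower, except that quantile normalization turned RBCS1A to 0.12 and RCA to 0.35, and none at 0 in any library. The count was 3 of 6 when RNAi replicate 2, Col-0 replicate 1 or Col-0 replicate 2 was left out. Among them GLDP1 had a log2 fold change of -0.80, GAPB of -0.60, RBCS1A of -0.82 and RBCS3B, whose reads are shared with near copies, of -1.22. Root markers summed to 2843.49 to 4150.96 RPKM in RNAi and to 3686.19 to 3881.13 RPKM in Col-0, overlapping. Of these 8, 2 were lower (CASP1 and ESB1), 2 were higher (SHR and SCR) and 4 were not called, and none was at 0. Without RNAi replicate 3, 4 were higher. The call on ESB1 was lost after rescaling to TPM. Among all genes tested 27.5% were lower and 25.2% higher, close to the shares among the root markers. Seed markers summed to 143.09, 30.41 and 22.84 RPKM in RNAi replicates 1, 2 and 3, against 0.41, 2.02 and 0.59 RPKM in Col-0, and all 8 had a Col-0 mean under 1 RPKM. The 6 seed markers tested were all higher, among them SESA1, SESA2, CRA1 and OLEO1, which encode storage and oil body proteins, and 3 were higher when Col-0 replicate 1 or 3 was left out. RNAi replicate 1 was the highest in seed markers and the lowest in 7 of 9 LHCII genes. How many of all genes were lowest in that library was not counted, so the 7 of 9 has no background here. Whether the stage of the seedlings has a part in the lower LHCII values was not tested.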

How the data were processed

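RNA-seq of poly(A) RNA was made from whole seedlings, with 3 libraries of the sqtl1 RNAi line and 3 of Col-0, using a strand-marking kit, per the labels' protocols. Per the submitters' processing notes, Trimmomatic 0.39, Bowtie2 2.2.6 and the TAIR10 genome build were used; how reads were counted, with or without strand, and what became of reads with several matches is not stated there. The authors deposited RPKM per gene and library, a gene length in kilobases (a length, handled under the unit score). They also deposited a multiple-mapping ratio, which is a fraction. Of 38199 lines, 5 named no gene and were left out.

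Genes averaging 1 RPKM or more across the 6 libraries were tested with limma 3.58.1 (R 4.3.3, trended variance) on log2(RPKM + 1), with Benjamini-Hochberg adjustment over all 19458 genes. The pseudocount understates the change of low genes. Copies were summed and refitted in the whole table, ratios to summed LHCB1 were fitted likewise, and single ratios and shares were compared by exact permutation. RPKM does not give depth directly; it was estimated from the steps between low values (tolerance 0.0055 RPKM). The fit was tested on simulated data with 19180 genes, drawn around the Col-0 means with the same fixed spread in both groups. It recovered 2 of 50 genes changed 1.25-fold, 37 of 49 changed 1.5-fold, 50 of 50 changed 2-fold and 48 of 48 changed 4-fold. The members' coefficient of variation was 23.5% to 50.6% in RNAi and 2.2% to 12.7% in Col-0, so these rates do not describe the members.

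Genes, promoters and coding sequences come from the RefSeq annotation of TAIR10.1, and all 9 members and all 91 list entries matched by identifier. Identity was computed from global pairwise alignments with Biopython 1.88. MAFFT 7.526 was used to choose the printed coding stretches. Genes named are the members, up to 4 called genes of each list with the lowest adjusted p, every gene of the import, phosphorylation, chlorophyll b and regulator lists, and the 8 genes most like the members. The members, lists and tests were chosen with earlier results of these data known, so no list is independent evidence of its direction. Alternatives were other pseudocounts and filters, quantile normalization, TPM, a replicate block and each library left out.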

Additional observations from a re-analysis of the deposited data

How the results depend on the processing

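All 9 members were called lower under pseudocounts of 0.1 and 5, a filter at 5 RPKM and TPM. In these settings 27.3%, 27.5%, 29% and 17% of all genes tested were called lower. TPM moved the median of all genes tested to 0.159 and the share of lower calls among all calls to 29.4%, against 52.2%, and left 1 root marker lower, while GLK1 and HY5 turned to 0.15 and 0.17.

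Without a filter on low values 3 of 9 members, and 12.9% of all genes, were called lower. Summed LHCB1 kept its log2 fold change of -1.21 with an adjusted p of 1 (SE 22.269, against 0.345 with the filter). LHCB3 kept its -1.32 with 0.0745 (SE 0.396, against 0.228; both by limma). Their RPKM values are the same in both fits, so the wider SEs come from the variance trend fitted over all genes. The lower calls were 4 in the minor antenna list, 3 in the photosystem I antenna, 7 in the photosystem II subunits and 2 among green leaf markers. Under quantile normalization, which pulls the highest genes of all libraries together by construction, 4 of 9 members, 26.5% of all genes and 2 green leaf markers were called lower, summed LHCB1 had -0.26, LHCB1.1 turned to 0.09, RBCS1A to 0.12, RCA to 0.35, LHCB4.1 to 0.08, and LHCB2.2 relative to LHCB1 to -0.81. The causes of the other changes were not tested.

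Replicate numbers did not pair the samples (correlations of same-numbered libraries -0.064, 0.093 and 0.02). With the replicate block, summed LHCB1 had -1.21 (adjusted p = 0.128 by limma), 3 green leaf markers were lower, LHCB1.1 and LHCB1.3 had adjusted p-values of 0.0648 and 0.0679, and 4762 genes were lower and 4272 higher, against 5346 and 4894.

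Leaving out 1 library at a time gave a log2 fold change of summed LHCB1 between -1.48 and -1.03, its call being lost in each case but the one without RNAi replicate 3, and 3 to 6 green leaf markers lower, with 3 without RNAi replicate 2, Col-0 replicate 1 or Col-0 replicate 2. The sign turned in some of these fits for LHCB2.2 relative to LHCB1 (-0.07 to 0.06), GLK1 (-0.12 to 0.04), HY5 (-0.07 to 0.05) and CCA1 (-0.09 to 0.16), none of which had passed the test. The calls on LHCB1.1 and LHCB1.3 were lost without RNAi replicate 2, Col-0 replicate 1 or Col-0 replicate 3, and that on LHCB1.1 also without Col-0 replicate 2. The exact permutation test of the ratios to LHCB1 was added after seeing the data. In the simulated data, with 3 libraries a group, a gene changed 1.25-fold was mostly missed. Their spread was the same in both groups, unlike that of the members, so the rates do not carry over to the members. Depth does not limit the members.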
